A study of Mus musculus with 12 samples.

Results

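The Wnt, BMP and TGF-beta signalling genes described here are the 68 of 11481 genes whose symbols begin with Wnt, Fzd, Dkk, Sfrp, Frzb, Axin, Tgfb, Bmp, Smad, Ltbp, Inhb, Acvr or Gdf, or are Lrp5 or Lrp6. They were chosen by name among the listed genes, with earlier results of these data known. Whether a gene was listed depended at least on its WT level, as given below. The genes were measured by RNA sequencing of polyadenylated RNA in primary mouse embryonic fibroblasts of a mixed 129/B6 background, grown from lincRNA-p21 +/+ (WT) or lincRNA-p21 -/- (KO) embryos. LincRNA-p21 is a long noncoding RNA gene that p53 is known to activate after DNA damage, and doxorubicin is a topoisomerase poison that causes such damage. Doxorubicin was given to cells of both genotypes at 0.5 mM, the unit as the labels state it, for 24 hours, with mock-treated cells beside them. Genotype and treatment made 4 groups of 3 biological replicates, 12 libraries in all, with the same medium and strain background throughout. How the KO allele was made, and how many embryos stand behind a culture are not given in the sources used here. The questions the design poses are how the loss of lincRNA-p21 alters these genes with and without doxorubicin, how doxorubicin alters them, and whether that response depends on the genotype.

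Mock and doxorubicin libraries came in separate tables of read counts per 1000000 reads (CPM), with 10648 and 11125 genes, of which 10292 were shared. Of the members, 56 were listed for mock cells, 67 for doxorubicin-treated cells and 55 for both. Listed genes were above 2 CPM in each WT library throughout. In KO libraries, 164 genes in mock and 313 in doxorubicin-treated cells stood at or under that level, 2 and 3 of them members. A gene low in WT and high in KO cells could therefore be missing from a table, and a gene listed for doxorubicin-treated cells alone was chosen by its WT level there. Both sets of values also bear the label noYX, which may mean that genes of chromosomes X and Y were left out. That was not checked. Totals ran from 14327048 to 20511907 reads per library. Of 17 fibroblast markers 16 were listed, with summed levels of 51894 to 69430 CPM in mock and 31983 to 42206 CPM in doxorubicin libraries. Of 14 epithelial markers 3 were listed for mock and 4 for doxorubicin-treated cells, with sums of up to 42.4 and 327 CPM. Of 13 endothelial markers 4 were listed for each, with sums of up to 396 and 240 CPM. Epcam, Cdh1, Pecam1 and Cdh5 were not listed. Skeletal muscle markers (3 of 12 listed) summed to up to 449 CPM and neural markers (4 of 12 listed) to up to 755 CPM in mock libraries. The purity of the cultures was not tested. The level of lincRNA-p21 itself was not analysed here and gave no check of the labels.

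Wnt ligands bind Frizzled receptors, with Lrp5 or Lrp6 as co-receptors, and thereby release beta-catenin from a destruction complex built on Axin. Beta-catenin then acts with TCF/LEF factors on target genes, of which Axin2 is a classic negative-feedback example. TGF-beta, activin and BMP ligands join type I and type II receptor kinases, which phosphorylate the receptor Smads (Smad2 and Smad3 for TGF-beta and activin, Smad1 and Smad5 for BMPs). These enter the nucleus with Smad4, while Smad6 and Smad7 inhibit the signal. In fibroblasts TGF-beta signalling is known for driving matrix production and contractile gene expression, and for a cell-cycle arrest that can accompany senescence. By role, the members were 10 Wnt ligands, 11 Wnt receptors and co-receptors, 2 Axin scaffolds, 5 secreted Wnt antagonists, 6 TGF-beta and activin ligands, 4 latent TGF-beta binding proteins, 7 BMP ligands and GDFs, 1 BMP modulator, 10 receptors of the TGF-beta superfamily and 7 Smads. The remaining 5 (Bmp1, Bmp2k, Tgfb1i1, Tgfbi and Tgfbrap1) carry the family names and were placed in none of these roles. The figures label them as sharing only the name, and whether they act in these pathways was not tested.

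Promoters are shown for 4 members as examples. Wnt4 and Wnt9a had the largest rises with doxorubicin among the 55 members listed in both tables. Tgfbr1 is the TGF-beta type I receptor, and Smad6 is the member with the palindromic Smad site. Other members with these motifs are not printed. RefSeq promoters on GRCm38.p6 were matched by symbol for 47 of the 68 members (58 promoters). In windows from 250 bases before to 50 bases after the start, GGCGCC, a GC-rich Smad motif and its own reverse complement, occurred in 18 promoters of 16 member genes and in 11.9% of all 32851 promoters. The median GC content was 65.8% for member promoters and 52.7% for all promoters, so this GC-rich motif was not compared further. GTCTAGAC, the palindromic Smad3/Smad4 site, occurred in Smad6 among the members and in 0.213% of all promoters. Each sequence below runs 5′ to 3′ on the gene's strand from 250 bases before to 10 bases after the start, with the motif in capitals. They are Wnt4 (chr4:137277385-137277644, plus strand, GGCGCC from bases -42 and -21), Wnt9a (chr11:59306680-59306939, plus strand, from -118 and -65), Tgfbr1 (chr4:47352972-47353231, plus strand, from -233) and Smad6 (chr9:64022050-64022309, minus strand, GTCTAGAC from -4).
Wnt4: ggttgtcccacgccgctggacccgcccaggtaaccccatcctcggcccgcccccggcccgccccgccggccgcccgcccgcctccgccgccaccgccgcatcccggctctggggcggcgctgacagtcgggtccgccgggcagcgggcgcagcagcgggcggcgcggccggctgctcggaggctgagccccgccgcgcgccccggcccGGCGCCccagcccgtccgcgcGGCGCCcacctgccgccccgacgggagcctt
Wnt9a: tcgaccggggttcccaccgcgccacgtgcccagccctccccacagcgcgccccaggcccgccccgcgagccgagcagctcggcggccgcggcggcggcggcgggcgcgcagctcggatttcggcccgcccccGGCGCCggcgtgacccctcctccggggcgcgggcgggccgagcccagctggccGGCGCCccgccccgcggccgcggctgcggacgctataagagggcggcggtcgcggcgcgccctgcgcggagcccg
Tgfbr1: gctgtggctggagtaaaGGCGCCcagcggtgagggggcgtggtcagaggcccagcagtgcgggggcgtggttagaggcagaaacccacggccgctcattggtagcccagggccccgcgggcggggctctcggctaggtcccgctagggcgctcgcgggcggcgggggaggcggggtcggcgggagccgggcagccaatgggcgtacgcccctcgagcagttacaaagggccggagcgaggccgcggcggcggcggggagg
Smad6: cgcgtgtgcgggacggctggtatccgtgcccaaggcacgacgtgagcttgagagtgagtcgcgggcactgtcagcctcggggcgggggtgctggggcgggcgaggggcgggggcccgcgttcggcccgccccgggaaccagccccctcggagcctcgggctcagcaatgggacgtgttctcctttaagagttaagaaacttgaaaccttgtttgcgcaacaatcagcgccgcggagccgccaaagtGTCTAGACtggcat

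Among the other motifs searched on both strands, the TCF/LEF forms CTTTGAT and CTTTGAA occurred in 1 member gene (Wnt11) and in 0 member genes, against 3.73% and 5.14% of all promoters. The short Smad site CAGACA occurred in 7 member genes (Bmp8b, Bmpr1b, Ltbp1, Ltbp3, Sfrp2, Tgfb2 and Tgfbr1) and in 21% of all promoters. The p53 response element matched 0 member promoters and 0.0731% of all. A match describes the letters in the window and is not a binding site, and a missing match says only that the letters are not in it.

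With doxorubicin the Wnt ligands Wnt4 and Wnt9a, the Wnt antagonist Dkk2 and the signal transducer Smad3 rose in both genotypes, and the receptor Fzd2, the ligand Gdf11 and the adhesion protein Tgfb1i1 fell in both. The 12 members listed for doxorubicin-treated cells alone and the 1 for mock cells alone were not tested for a response. A larger rise among them would not be seen. In WT cells 14 of the 55 members listed in both tables rose and 11 fell, against 47.3% of all genes called in either direction (limma, adjusted p under 0.05), a share of 45.5% that was close to the background. In KO cells 7 rose and 7 fell, a share of 25.5% against 34.5% of all genes. Without KO doxorubicin replicate 3 the members called were 7, and without KO mock replicate 3 they were 9 (24.7% and 28.9% of all genes). With all libraries, 12 members were called the same way in both genotypes (6 higher, 6 lower), which is 48% of the WT calls and 85.7% of the KO calls. Over all genes the shares were 64.5% and 88.3%. The members' median log2 difference was 0.17 in WT and 0.09 in KO cells, and that of all genes 0.011 and 0.035. When the fit paired libraries by replicate number (the replicate block), 36 members were called in WT cells (63.7% of all genes) and 32 in KO cells (53.7% of all genes). The treatments did not overlap for 27 members in WT (49.1%, against 54.8% of all genes) and for 21 in KO cells (38.2%, against 48.6%). Centring each library on its median moved the WT split of all genes from 2664 higher and 2199 lower to 2202 and 2944, and the members' split from 14 and 11 to 12 and 14. In KO cells the split of all genes went from 2052 and 1500 to 1669 and 2027, and the members' from 7 and 7 to 6 and 9.

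**Figure D1:**
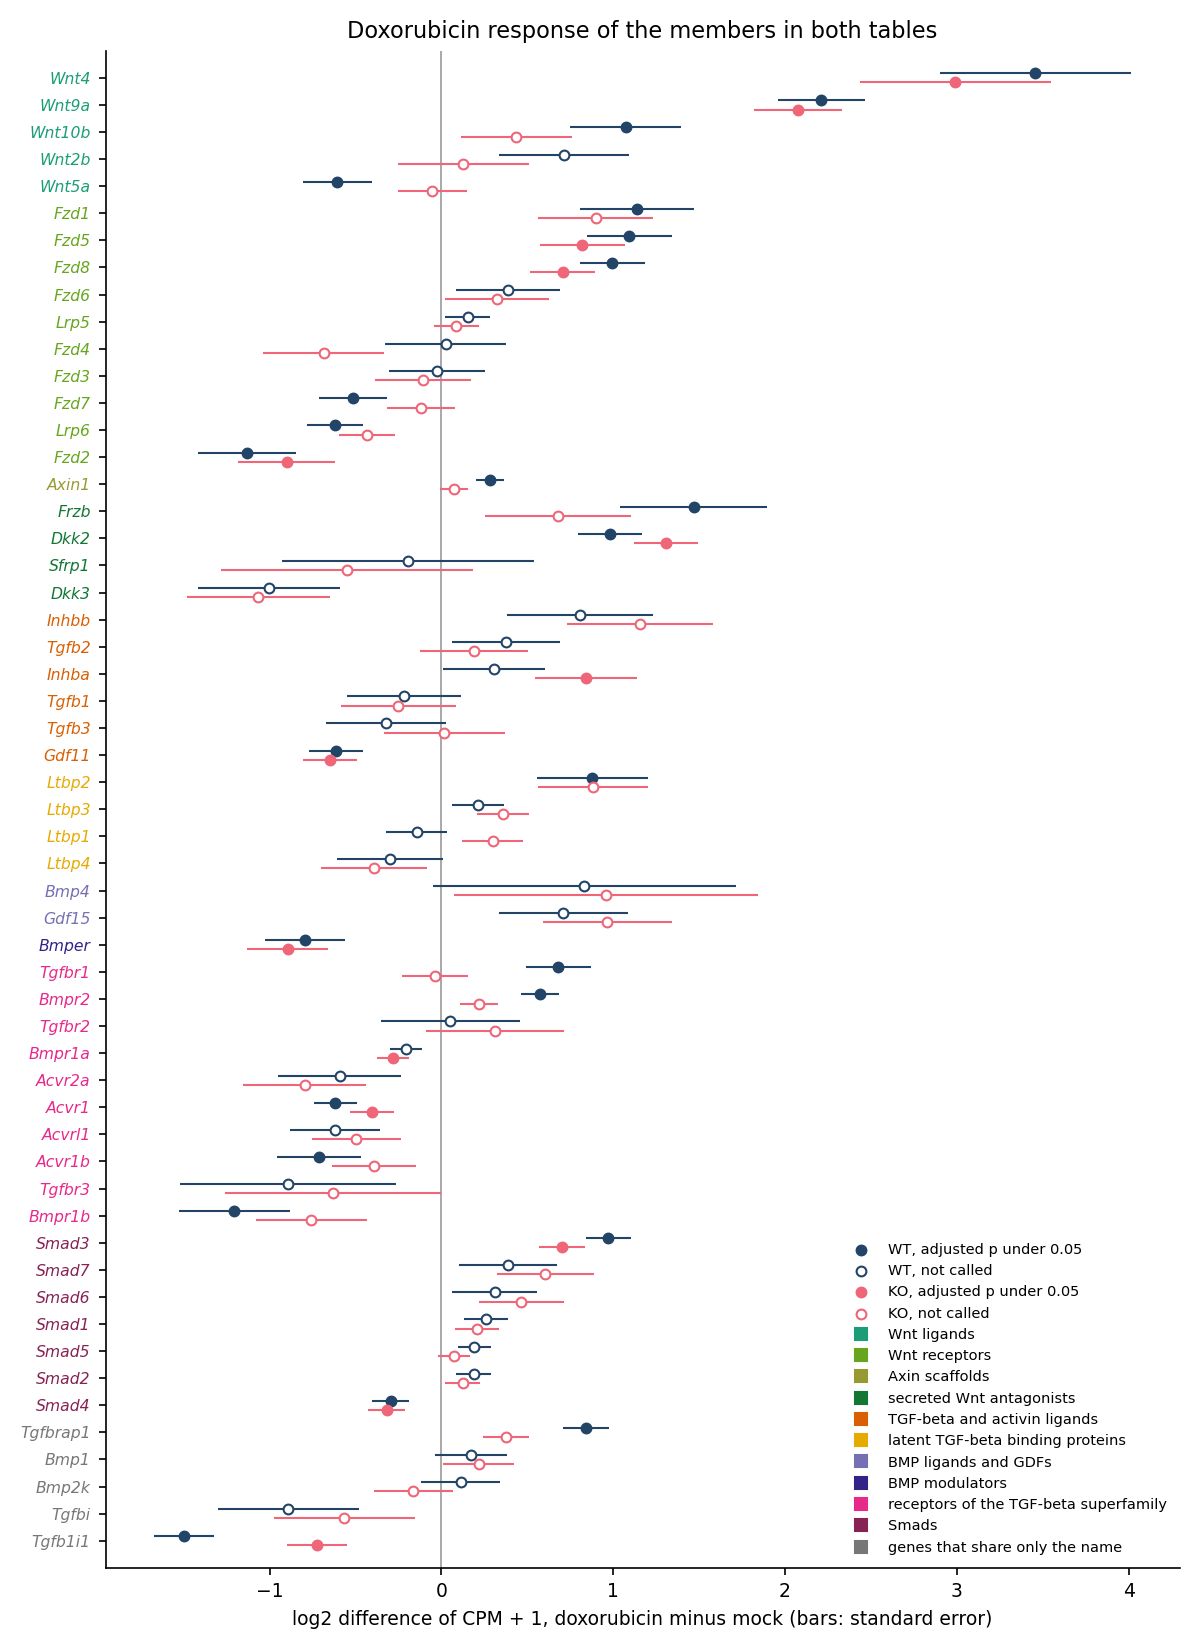
Log2 difference of CPM + 1, doxorubicin minus mock, for the 55 members listed in both tables (horizontal axis), in WT and in KO cells. Bars are limma's standard errors from 1 fit that pools the spread of all 4 groups of 3 replicates, so they are equal in WT and KO cells. Filled points passed limma's test at an adjusted p under 0.05 and labels are coloured by role. Wnt4 and Wnt9a lie farthest to the right in both genotypes, and Tgfb1i1 lies farthest to the left in WT cells.

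Among the Wnt ligands, Wnt4 and Wnt9a rose strongly with doxorubicin in both genotypes, and Wnt5a, the prototype of the beta-catenin-independent branch, fell in WT cells. Levels are listed for replicates 1, 2 and 3 in that order here and below. Wnt4, a ligand known for its part in kidney and female reproductive tract development, stood at 4.47, 2.15 and 6.60 CPM in WT mock and 2.16, 0.960 and 8.01 CPM in KO mock libraries. After doxorubicin, Wnt4 stood at 45.0, 44.3 and 82.6 CPM in WT and 19.3, 24.1 and 54.2 CPM in KO libraries. All 6 doxorubicin libraries lay above all 6 mock libraries (log2 difference 3.46, SE 0.56, adjusted p = 0.000530 in WT, and log2 difference 2.99, SE 0.56, adjusted p = 0.00216 in KO). On the scale of CPM + 1 the WT rise was 11.0-fold. Wnt9a, a ligand expressed at forming joints, stood at 30.6, 30.5 and 16.5 CPM in WT mock and 27.9, 28.6 and 17.03 CPM in KO mock libraries. After doxorubicin, Wnt9a stood at 144, 97.6 and 119.8 CPM in WT and 112, 102 and 97.8 CPM in KO libraries, again with no overlap between treatments. It rose by a log2 difference of 2.21, SE 0.25, adjusted p = 7.74e-05 in WT and by a log2 difference of 2.08, SE 0.25, adjusted p = 0.000222 in KO cells. The replicate order of Wnt9a in mock cells (replicate 3 lowest) was not that of Wnt4 (replicate 3 highest). Wnt10b, a ligand of the beta-catenin branch, stood at 2.30, 5.21 and 3.30 CPM in WT mock and 5.35, 6.62 and 2.48 CPM in KO mock libraries. After doxorubicin, Wnt10b stood at 5.97, 8.87 and 10.9 CPM in WT and 6.53, 7.84 and 5.27 CPM in KO libraries. Wnt10b rose in WT cells (log2 difference 1.07, SE 0.32, adjusted p = 0.0183), where the call was lost without WT mock replicate 1 or WT doxorubicin replicate 3 (adjusted p up to 0.0748), and had a log2 difference of 0.44 in KO cells (adjusted p = 0.322). Wnt5a stood at 235, 294 and 219 CPM in WT mock and 170.3, 227 and 165 CPM in KO mock libraries. After doxorubicin, Wnt5a stood at 225, 146 and 129.9 CPM in WT and 186, 190.2 and 161 CPM in KO libraries. Wnt5a fell in WT cells (log2 difference -0.61, SE 0.20, adjusted p = 0.0284), a call lost without WT mock replicate 1 or 2 or WT doxorubicin replicate 2 or 3 (adjusted p up to 0.116), and differed by -0.05 in KO cells (adjusted p = 0.862). Wnt2b, the fifth Wnt ligand in both tables, had log2 differences of 0.71 and 0.13 and was called in neither genotype.

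**Figure D2:**
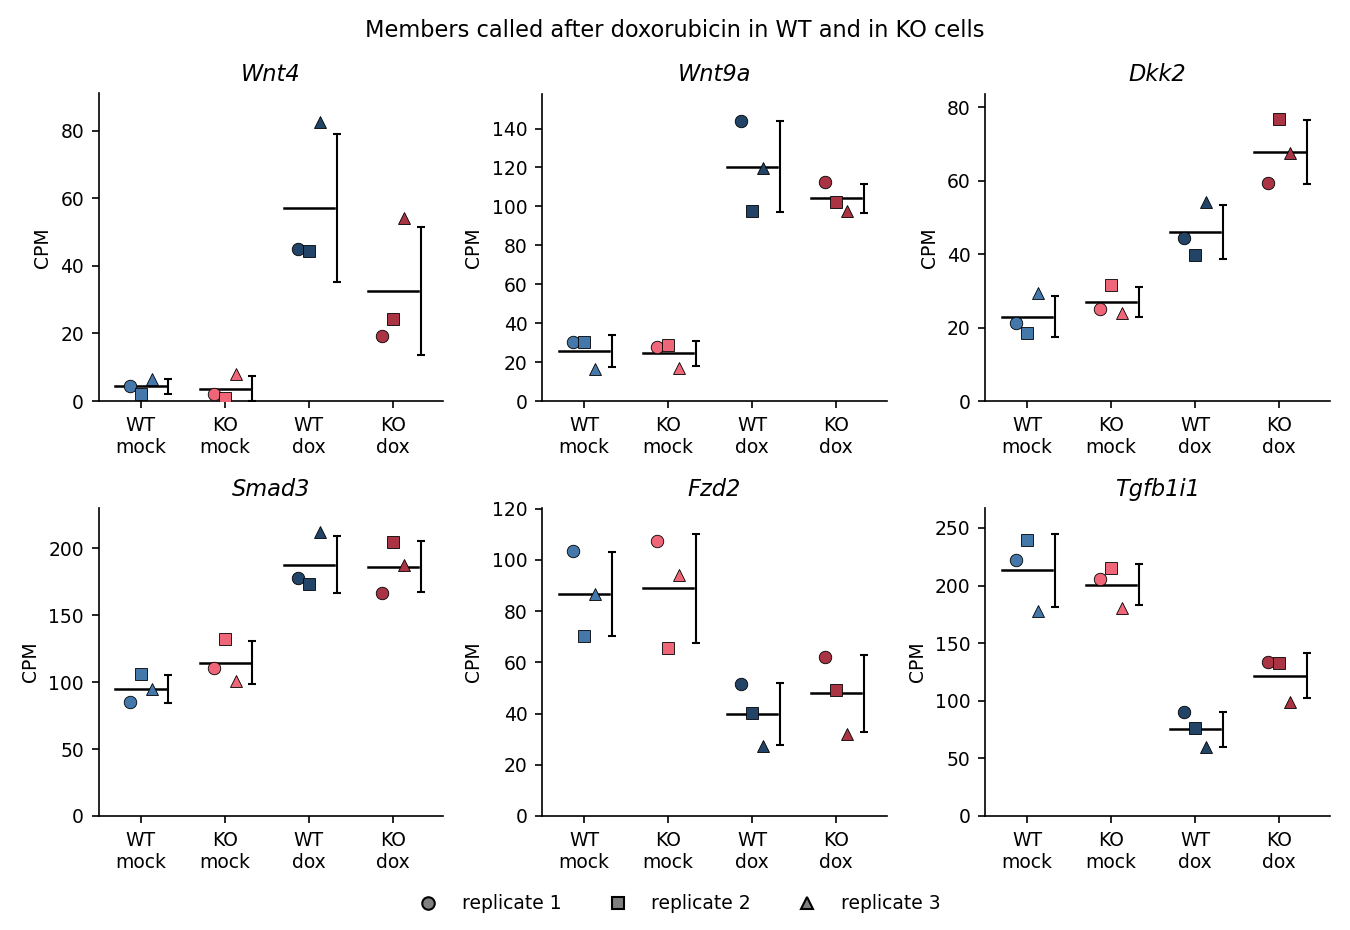
CPM (linear axis from 0) of Wnt4, Wnt9a, Dkk2, Smad3, Fzd2 and Tgfb1i1 in the 4 groups; each point is a library with its replicate number shown by the marker, lines are means and bars the standard deviation (n = 3). The mock and doxorubicin points do not overlap within either genotype in any of the 6 panels.

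Of 10 Wnt receptors and co-receptors 3 were called higher and 3 lower in WT cells, near the shares of all genes (25.9% higher and 21.4% lower). Fzd5, a Frizzled receptor, stood at 7.75, 7.97 and 8.85 CPM in WT mock and 14.8, 9.14 and 8.68 CPM in KO mock libraries. After doxorubicin, Fzd5 stood at 12.8, 23.1 and 21.6 CPM in WT and 16.6, 18.3 and 24.0 CPM in KO libraries. Fzd5 rose in WT (log2 difference 1.09, SE 0.25, adjusted p = 0.00410) and in KO cells (log2 difference 0.82, SE 0.25, adjusted p = 0.0248), where the call needed KO replicates 2 and 3 of both treatments (adjusted p up to 0.0982). Fzd8 stood at 6.14, 6.81 and 10.3 CPM in WT mock and 8.53, 7.33 and 10.5 CPM in KO mock libraries. After doxorubicin, Fzd8 stood at 15.5, 16.4 and 16.4 CPM in WT and 13.7, 14.3 and 16.7 CPM in KO libraries, with every doxorubicin library above every mock library. Its rise was called in WT (log2 difference 0.99, SE 0.19, adjusted p = 0.00141) and in KO cells (log2 difference 0.71, SE 0.19, adjusted p = 0.0138, lost without KO mock replicate 2 or KO doxorubicin replicate 3 with adjusted p up to 0.0555). Fzd1 stood at 34.6, 25.7 and 57.8 CPM in WT mock and 52.5, 30.5 and 66.5 CPM in KO mock libraries. After doxorubicin, Fzd1 stood at 94.7, 65.8 and 92.6 CPM in WT and 103, 65.4 and 105 CPM in KO libraries, replicate 2 being lowest in all 4 groups. Fzd1 rose in WT cells (log2 difference 1.14, SE 0.33, adjusted p = 0.0154, lost without WT mock replicate 2 or WT doxorubicin replicate 3, adjusted p up to 0.0639), and in KO cells its log2 difference of 0.90 had an adjusted p of 0.0565, or 0.000501 with the replicate block. Fzd2 moved the other way, at 103, 70.3 and 86.5 CPM in WT mock and 107, 65.6 and 94.0 CPM in KO mock libraries. After doxorubicin, Fzd2 stood at 51.7, 40.3 and 27.4 CPM in WT and 62.0, 49.3 and 32.2 CPM in KO libraries. Fzd2 fell in WT (log2 difference -1.13, SE 0.28, adjusted p = 0.00707) and in KO cells (log2 difference -0.90, SE 0.28, adjusted p = 0.0293), the latter lost without KO mock replicate 1 or 3 or KO doxorubicin replicate 2 or 3 (adjusted p up to 0.119). Fzd7 stood at 113, 137 and 169 CPM in WT mock and 90.5, 118 and 142 CPM in KO mock libraries. After doxorubicin, Fzd7 stood at 105, 82.3 and 103 CPM in WT and 99.1, 92.6 and 129 CPM in KO libraries. Fzd7 fell in WT cells at the edge of the threshold (log2 difference -0.52, SE 0.20, adjusted p = 0.04997), and omitting any library but WT mock replicate 1, KO mock replicates 1 and 3 and KO doxorubicin replicate 3 ended the call (adjusted p up to 0.178). The co-receptor Lrp6 stood at 94.8, 96.2 and 120.1 CPM in WT mock and 95.2, 95.03 and 132 CPM in KO mock libraries. After doxorubicin, Lrp6 stood at 75.6, 71.6 and 54.9 CPM in WT and 85.6, 72.8 and 77.5 CPM in KO libraries. Lrp6 fell in WT cells (log2 difference -0.62, SE 0.16, adjusted p = 0.00932), and in KO cells differed by -0.43 (adjusted p = 0.0611, or 0.0416 with the replicate block). The other co-receptor, Lrp5, stood at 97.2, 76.8 and 89.6 CPM in WT mock and 95.2, 73.9 and 86.6 CPM in KO mock libraries. After doxorubicin, Lrp5 stood at 100.03, 88.9 and 104 CPM in WT and 86.1, 83.0 and 102 CPM in KO libraries, with log2 differences of 0.15 and 0.09 and no call. Fzd3, Fzd4 and Fzd6 were called in neither genotype (log2 differences from -0.68 to 0.38).

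Of the 4 secreted antagonists in both tables, Dkk2 rose in both genotypes and Frzb rose in WT cells. Dkk2, a Dickkopf protein that binds Lrp5 and Lrp6, stood at 21.1, 18.5 and 29.3 CPM in WT mock and 25.02, 31.5 and 24.1 CPM in KO mock libraries. After doxorubicin, Dkk2 stood at 44.3, 39.7 and 54.2 CPM in WT and 59.3, 76.8 and 67.6 CPM in KO libraries. The treatments did not overlap in either genotype (log2 difference 0.98, SE 0.19, adjusted p = 0.00144 in WT, and log2 difference 1.31, SE 0.19, adjusted p = 0.000514 in KO cells). Frzb, a secreted Frizzled-related protein that sequesters Wnts and is known from cartilage, stood at 7.61, 4.66 and 11.5 CPM in WT mock and 5.09, 3.23 and 8.40 CPM in KO mock libraries. After doxorubicin, Frzb stood at 14.4, 35.8 and 21.6 CPM in WT and 5.44, 9.26 and 14.0 CPM in KO libraries. Frzb rose in WT cells (log2 difference 1.47, SE 0.43, adjusted p = 0.0151), a call that needed replicate 2 of both WT groups (adjusted p up to 0.0618 without it). In KO cells its log2 difference was 0.68 (adjusted p = 0.240). Dkk3, a divergent Dickkopf, stood at 129, 84.9 and 99.3 CPM in WT mock and 128, 69.6 and 101 CPM in KO mock libraries. After doxorubicin, Dkk3 stood at 73.1, 35.5 and 50.6 CPM in WT and 87.7, 23.4 and 45.8 CPM in KO libraries. Replicate 2 was lowest in every group, and the log2 differences of -1.004 and -1.07 were not called without the replicate block (adjusted p = 0.0673 and 0.0679) and were called with it (0.000789 and 0.000805). Sfrp1 stood at 23.9, 9.87 and 51.2 CPM in WT mock and 17, 9.09 and 86.9 CPM in KO mock libraries. After doxorubicin, Sfrp1 stood at 16.5, 18.5 and 26.6 CPM in WT and 14.0, 10.8 and 27.7 CPM in KO libraries, with log2 differences of -0.20 and -0.55 and no call. Axin1, the scaffold of the beta-catenin destruction complex, stood at 60.7, 62.5 and 63.0 CPM in WT mock and 67.7, 71.8 and 66.5 CPM in KO mock libraries. After doxorubicin, Axin1 stood at 72.2, 76.9 and 78.2 CPM in WT and 69.4, 72.7 and 74.9 CPM in KO libraries. Axin1 rose in WT cells by a small amount (log2 difference 0.28, SE 0.08, adjusted p = 0.0151, 0.0522 without WT mock replicate 1), and its log2 difference of 0.07 in KO cells turned to -0.01 with median centring and -0.02 with quantile normalization.

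Of 6 ligands of the TGF-beta and activin branch, Gdf11 was called lower in both genotypes and Inhba higher in KO cells. Gdf11, a growth and differentiation factor that signals through Smad2 and Smad3, stood at 35.9, 28.9 and 34.7 CPM in WT mock and 36.5, 27.2 and 38.1 CPM in KO mock libraries. After doxorubicin, Gdf11 stood at 21.0, 20.3 and 22.4 CPM in WT and 23.9, 18.1 and 21.4 CPM in KO libraries. Gdf11 fell in WT (log2 difference -0.61, SE 0.16, adjusted p = 0.00771) and in KO cells (log2 difference -0.65, SE 0.16, adjusted p = 0.00850), with no overlap between treatments. Inhba, which encodes the beta A subunit of activin, stood at 146, 282 and 172 CPM in WT mock and 142, 232 and 126 CPM in KO mock libraries. After doxorubicin, Inhba stood at 233, 282 and 204 CPM in WT and 258, 406 and 232 CPM in KO libraries. Its log2 difference was 0.31 in WT cells (adjusted p = 0.417, or 0.0374 with the replicate block). It rose in KO cells (log2 difference 0.84, SE 0.30, adjusted p = 0.0459), a call lost with median centring and without any of 8 libraries (WT mock 3, KO mock 1 and 3, WT doxorubicin 1, 2 and 3, KO doxorubicin 1 and 2; adjusted p up to 0.163). Inhbb, the beta B subunit, stood at 84.0, 48.3 and 69.3 CPM in WT mock and 79.6, 52.4 and 73.6 CPM in KO mock libraries. After doxorubicin, Inhbb stood at 154, 77.2 and 129.8 CPM in WT and 235, 68.6 and 214 CPM in KO libraries, replicate 2 being lowest throughout. Its log2 differences of 0.81 and 1.15 were not called without the replicate block (adjusted p = 0.139 and 0.0556), and with it the adjusted p was 0.00493 and 0.000832. Tgfb1, the ligand most studied in fibroblasts, stood at 75.2, 96.2 and 51.4 CPM in WT mock and 85.3, 93.2 and 47.7 CPM in KO mock libraries. After doxorubicin, Tgfb1 stood at 54.6, 93.1 and 46.2 CPM in WT and 63.5, 78.1 and 44.9 CPM in KO libraries. Tgfb2 stood at 56.2, 109.9 and 83.8 CPM in WT mock and 63.5, 93.1 and 84.5 CPM in KO mock libraries. After doxorubicin, Tgfb2 stood at 90.4, 89.1 and 142 CPM in WT and 90.4, 60.5 and 136 CPM in KO libraries. Tgfb3 stood at 441, 484 and 201 CPM in WT mock and 386, 369.7 and 209 CPM in KO mock libraries. After doxorubicin, Tgfb3 stood at 286, 262 and 291 CPM in WT and 436, 215 and 329.8 CPM in KO libraries. In each of the 3 the spread among replicates was as wide as the gap between treatments, and no call was made (log2 differences of -0.22 and -0.25 for Tgfb1, 0.38 and 0.19 for Tgfb2, -0.32 and 0.02 for Tgfb3 in WT and KO cells).

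Latent TGF-beta binding proteins anchor latent ligand in the matrix, apart from Ltbp2, which is not known to bind it. Ltbp2 stood at 272, 483 and 568 CPM in WT mock and 290.2, 528 and 455 CPM in KO mock libraries. After doxorubicin, Ltbp2 stood at 662, 674 and 1044 CPM in WT and 566, 762 and 1019 CPM in KO libraries. Ltbp2 rose in WT cells (log2 difference 0.88, SE 0.32, adjusted p = 0.0428), a call lost with median centring and without WT mock replicate 1 or 2, KO mock replicate 3, any WT doxorubicin library or KO doxorubicin replicate 2 (adjusted p up to 0.169). In KO cells its log2 difference was 0.88 (adjusted p = 0.0539, or 0.000945 with the replicate block). Ltbp1, Ltbp3 and Ltbp4 were not called in either genotype without the replicate block, with log2 differences from -0.39 to 0.36. With it Ltbp4 was lower in WT (-0.30, adjusted p = 0.0252) and in KO cells (-0.39, 0.00845), and Ltbp1 (0.30, 0.0149) and Ltbp3 (0.36, 0.0195) were higher in KO cells. On the BMP side, Bmp4 stood at 9.14, 4.11 and 36.2 CPM in WT mock and 21.2, 7.78 and 78.1 CPM in KO mock libraries. After doxorubicin, Bmp4 stood at 19.9, 12.4 and 37.9 CPM in WT and 64.8, 18.9 and 85.0 CPM in KO libraries. Replicate 3 was highest and replicate 2 lowest in every group, and the log2 differences of 0.83 and 0.96 passed with the replicate block (adjusted p = 0.0321 and 0.0209) and not without it (0.461 and 0.432). Gdf15, a stress-responsive cytokine and known p53 target, stood at 5.72, 11.3 and 4.57 CPM in WT mock and 5.28, 9.85 and 3.89 CPM in KO mock libraries. After doxorubicin, Gdf15 stood at 15.8, 12.53 and 7.85 CPM in WT and 17.1, 12.0 and 9.46 CPM in KO libraries. Its log2 differences of 0.71 and 0.96 were not called without the replicate block (adjusted p = 0.142 and 0.0673), and with it the adjusted p was 0.0267 and 0.00739. Bmper, a secreted BMP-binding protein, stood at 33.6, 44.2 and 29.3 CPM in WT mock and 30.4, 38.9 and 26.6 CPM in KO mock libraries. After doxorubicin, Bmper stood at 17.2, 28.1 and 16.1 CPM in WT and 18.2, 18.3 and 13.5 CPM in KO libraries. Bmper fell in WT (log2 difference -0.79, SE 0.23, adjusted p = 0.0166, lost without WT mock replicate 2 or WT doxorubicin replicate 1 or 3, adjusted p up to 0.0694) and in KO cells (log2 difference -0.90, SE 0.23, adjusted p = 0.0128, lost without KO mock replicate 2 or KO doxorubicin replicate 3, adjusted p up to 0.0543).

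Among the 10 receptors of the superfamily, 2 rose and 3 fell in WT cells and 2 fell in KO cells (of all genes 25.9% rose and 21.4% fell in WT cells, and 14.6% fell in KO cells). Acvr1, a type I receptor for BMPs and activins, stood at 66.3, 85.7 and 78.1 CPM in WT mock and 67.2, 71.7 and 74.9 CPM in KO mock libraries. After doxorubicin, Acvr1 stood at 46.0, 58.5 and 44.7 CPM in WT and 51.6, 56.7 and 52.8 CPM in KO libraries. Its level fell in WT (log2 difference -0.62, SE 0.13, adjusted p = 0.00241) and in KO cells (log2 difference -0.40, SE 0.13, adjusted p = 0.0302). The KO call was lost without KO mock replicate 2 or 3 or KO doxorubicin replicate 1 or 3 (adjusted p up to 0.0883). Bmpr1b, a BMP type I receptor, stood at 37.3, 40.2 and 22.9 CPM in WT mock and 18.0, 23.5 and 16.1 CPM in KO mock libraries. After doxorubicin, Bmpr1b stood at 16.2, 18.4 and 8.18 CPM in WT and 12.2, 13.9 and 7.39 CPM in KO libraries. Bmpr1b fell in WT cells (log2 difference -1.21, SE 0.32, adjusted p = 0.00973), from a mock level that was higher in WT than in KO in every pair, and differed by -0.76 in KO cells (adjusted p = 0.0893, or 0.00104 with the block). Bmpr1a, the other BMP type I receptor of this name, stood at 146, 145 and 146 CPM in WT mock and 153, 148 and 171 CPM in KO mock libraries. After doxorubicin, Bmpr1a stood at 123, 123 and 134 CPM in WT and 136, 117 and 134 CPM in KO libraries. It fell slightly in KO cells (log2 difference -0.28, SE 0.09, adjusted p = 0.0345), lost without KO mock replicate 1 or 3 or KO doxorubicin replicate 2 or 3 (adjusted p up to 0.125), and had -0.21 in WT cells (adjusted p = 0.0850, or 0.0284 with the block). Acvr1b, the activin type I receptor, stood at 20.6, 18.9 and 14.6 CPM in WT mock and 20.4, 19.7 and 18.2 CPM in KO mock libraries. After doxorubicin, Acvr1b stood at 13.5, 11.6 and 7.35 CPM in WT and 20.5, 13.4 and 11.1 CPM in KO libraries. Acvr1b fell in WT cells (log2 difference -0.71, SE 0.25, adjusted p = 0.0335), lost without WT mock replicate 1 or 2 or WT doxorubicin replicate 3 (adjusted p up to 0.135). In KO cells its log2 difference was -0.39 (adjusted p = 0.240, or 0.0414 with the block). Tgfbr1, the TGF-beta type I receptor, stood at 63.4, 69.3 and 44.3 CPM in WT mock and 63.2, 69.3 and 57.6 CPM in KO mock libraries. After doxorubicin, Tgfbr1 stood at 73.7, 116 and 95.2 CPM in WT and 54.9, 64.2 and 66.2 CPM in KO libraries. Tgfbr1 rose in WT cells (log2 difference 0.68, SE 0.19, adjusted p = 0.0125, 0.0511 without WT mock replicate 3), while the log2 difference in KO cells was -0.04 (adjusted p = 0.897). Bmpr2, the BMP type II receptor, stood at 46.4, 59.7 and 47.8 CPM in WT mock and 49.9, 55.8 and 50.5 CPM in KO mock libraries. After doxorubicin, Bmpr2 stood at 73.3, 80.7 and 75.2 CPM in WT and 59.5, 59.2 and 63.7 CPM in KO libraries. It rose without overlap in WT cells (log2 difference 0.57, SE 0.11, adjusted p = 0.00160), and its log2 difference in KO cells was 0.22 (adjusted p = 0.144). Tgfbr2, the TGF-beta type II receptor, stood at 222, 113 and 223 CPM in WT mock and 265, 118 and 288 CPM in KO mock libraries. After doxorubicin, Tgfbr2 stood at 219.8, 125 and 228 CPM in WT and 316, 168 and 325 CPM in KO libraries. Its replicate 2 lay far under the others in every group, and neither response was called without the replicate block (log2 differences 0.05 and 0.31, the latter with an adjusted p of 0.0104 with the block). Tgfbr3, the co-receptor betaglycan, stood at 18.8, 8.47 and 29.6 CPM in WT mock and 16.3, 8.54 and 50.5 CPM in KO mock libraries. After doxorubicin, Tgfbr3 stood at 11.3, 5.02 and 11.0 CPM in WT and 16.1, 5.94 and 18.3 CPM in KO libraries, with log2 differences of -0.90 and -0.63 and no call without the block (0.0111 and 0.0604 with it). Acvr2a, an activin type II receptor, and Acvrl1 were not called without the block, with log2 differences of -0.59 and -0.80 and of -0.62 and -0.49 (with it 0.0694 and 0.0256, and 0.0109 and 0.0375).

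Smad3, which carries TGF-beta and activin signals to DNA, was the Smad that rose in both genotypes, and the common partner Smad4 fell slightly in both. Smad3 stood at 84.9, 106 and 94.9 CPM in WT mock and 111, 132 and 101 CPM in KO mock libraries. After doxorubicin, Smad3 stood at 178, 173 and 213 CPM in WT and 167, 205 and 188 CPM in KO libraries. All doxorubicin libraries lay above all mock libraries (log2 difference 0.97, SE 0.13, adjusted p = 0.000209 in WT, and log2 difference 0.70, SE 0.13, adjusted p = 0.00252 in KO cells). Smad4 stood at 99.4, 96.9 and 91.2 CPM in WT mock and 108, 109 and 99.5 CPM in KO mock libraries. After doxorubicin, Smad4 stood at 88.6, 76.4 and 69.8 CPM in WT and 89.8, 87.5 and 75.8 CPM in KO libraries. Its falls were small (log2 difference -0.29, SE 0.11, adjusted p = 0.0424 in WT, and log2 difference -0.32, SE 0.11, adjusted p = 0.0391 in KO cells). The WT call was lost without any of 9 libraries (all 6 mock libraries, WT doxorubicin replicates 2 and 3 and KO doxorubicin replicate 2) and the KO call without any of 8 (all 6 mock libraries and KO doxorubicin replicates 2 and 3), with adjusted p up to 0.153 and 0.143. Smad2 stood at 51.0, 49.8 and 60.4 CPM in WT mock and 55.2, 55.8 and 60.6 CPM in KO mock libraries. After doxorubicin, Smad2 stood at 60.5, 58.1 and 64.8 CPM in WT and 59.2, 62.2 and 65.9 CPM in KO libraries, with log2 differences of 0.19 and 0.12. Smad2 was not called without the block (adjusted p = 0.155 and 0.378; with it 0.0453 and 0.179). The inhibitory Smad6, whose promoter with the GTCTAGAC match is shown above, stood at 6.70, 12.0 and 13.9 CPM in WT mock and 9.30, 14.9 and 11.2 CPM in KO mock libraries. After doxorubicin, Smad6 stood at 10.6, 15.1 and 14.3 CPM in WT and 15.5, 15.8 and 17.9 CPM in KO libraries. Smad7, the inhibitory Smad of the TGF-beta branch, stood at 54.6, 88.0 and 42.9 CPM in WT mock and 44.8, 68.5 and 36.8 CPM in KO mock libraries. After doxorubicin, Smad7 stood at 71.8, 90.8 and 71.6 CPM in WT and 63.2, 98.3 and 65.3 CPM in KO libraries. Neither inhibitor was called without the block in WT (0.31 and 0.39) or KO cells (0.47 and 0.61); with it the adjusted p was 0.127 and 0.0161 in WT and 0.0367 and 0.00182 in KO cells. Smad1 and Smad5, the BMP receptor Smads, differed by 0.07 to 0.26 and were not called. Of the members placed in none of the roles, Tgfb1i1, a focal-adhesion LIM protein, stood at 222, 239.7 and 178 CPM in WT mock and 206, 216 and 181 CPM in KO mock libraries. After doxorubicin, Tgfb1i1 stood at 89.9, 76.7 and 59.5 CPM in WT and 134, 132 and 99.2 CPM in KO libraries. It fell in both genotypes (log2 difference -1.50, SE 0.17, adjusted p = 7.93e-05 in WT, and log2 difference -0.73, SE 0.17, adjusted p = 0.00815 in KO cells). The smooth muscle markers, all 11 listed, summed to 9969 to 15484 CPM in WT mock and 3446 to 8971 CPM in WT doxorubicin libraries, and to 7890 to 11857 and 3484 to 5857 CPM in KO, and their part in this fall was not tested. Tgfbrap1, a receptor-associated protein of vesicle transport, stood at 40.0, 36.2 and 35.8 CPM in WT mock and 41.3, 35.2 and 42.1 CPM in KO mock libraries. After doxorubicin, Tgfbrap1 stood at 61.4, 83.0 and 60.2 CPM in WT and 51.5, 54.3 and 48.4 CPM in KO libraries. A rise was called in WT cells (log2 difference 0.84, SE 0.13, adjusted p = 0.000524) with a log2 difference of 0.37 in KO cells (adjusted p = 0.0510, or 0.0307 with the block). Bmp1, Bmp2k and Tgfbi were called in neither genotype (log2 differences from -0.89 to 0.22). In bulk RNA, fewer cells of a type and less RNA per cell cannot be told apart, for these and all other values.

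Genes of the same pathways outside the 68 were counted in lists named by function, without a set test. Some genes stand in more than 1 list. The lists were chosen with earlier results of these data known, so nothing is read from their counts, here or below. Of 13 measured BMP targets 8 were called higher and 0 lower with doxorubicin in WT cells (median log2 difference 1.06) and 5 and 0 in KO cells (0.58), against 25.9% and 19.9% of all genes higher. Id2, an inhibitor of differentiation, rose by 2.38, adjusted p = 7.09e-05 in WT and by 2.21, adjusted p = 0.000216 in KO cells, and Cdkn1c, a cell-cycle inhibitor, rose by 2.16, adjusted p = 0.000916 in WT cells. Id1, a direct BMP target, stood at 8.59, 18.8 and 28.8 CPM in WT and 11.4, 24.7 and 26.4 CPM in KO mock libraries, and at 43.2, 84.7 and 70.1 and 66.3, 104 and 88.7 CPM after doxorubicin. Id1 rose by 1.86, adjusted p = 0.00416 in WT and 2.06, adjusted p = 0.00369 in KO cells. Of 27 measured TGF-beta targets 3 were called higher and 11 lower in WT cells (median -0.63) and 3 and 8 in KO cells (-0.19), against 21.4% and 14.6% of all genes lower. The list mixes matrix and contractile genes with early response genes, and its members went both ways. The collagen receptor subunit Itga11 fell (log2 differences -2.72, adjusted p = 0.000206 in WT, and -3.24, adjusted p = 0.000174 in KO cells), as did the cadherin Cdh11 (-2.58, adjusted p = 4.17e-05, and -2.01, adjusted p = 0.000310). The transcription factor Klf10 rose by 1.46, adjusted p = 3.25e-05 and 1.21, adjusted p = 0.000198, and Junb by 0.91, adjusted p = 0.0166 and 0.77, adjusted p = 0.0471.

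The counts in the other lists stand against 25.9% of all genes higher and 21.4% lower in WT cells, and 19.9% and 14.6% in KO cells. Of 14 measured BMP and TGF-beta antagonists, 5 rose and 3 fell in WT cells and 3 rose and 1 fell in KO cells. Chrd, which sequesters BMPs, rose by 2.30, adjusted p = 0.000406 in WT and 1.32, adjusted p = 0.0144 in KO cells, and Fst, which sequesters activin, by 2.37, adjusted p = 0.0140 and 2.46, adjusted p = 0.0165. Fstl1, a follistatin-like protein, fell in WT cells (log2 difference -0.99). In the list of latency and activation genes 2 of 15 rose and 4 fell in WT cells and 2 rose and 1 fell in KO cells. Fibrillin 1 (Fbn1), the microfibril protein to which latent TGF-beta is tethered, fell (-1.52, adjusted p = 0.00416 in WT, and -1.26, adjusted p = 0.0158 in KO cells), and the plasminogen activator Plau rose by 1.61, adjusted p = 0.000153 and 1.47, adjusted p = 0.000510. Of 30 Smad partners and regulators, 9 rose and 3 fell in WT and 5 rose and 3 fell in KO cells, led upward by the ubiquitin ligase Ube2o (1.51 and 0.87). On the Wnt side, 11 of 36 transduction genes rose and 5 fell in WT cells (8 and 2 in KO cells). The TCF factor Tcf7 (2.14, adjusted p = 0.000230 in WT, and 1.26, adjusted p = 0.00796 in KO cells) and the beta-catenin antagonist Cby1 (1.97, adjusted p = 0.000159, and 1.31, adjusted p = 0.00290) rose in both, and Lef1, which stood between 4.85 and 19.6 CPM over all libraries, was not called (log2 differences 0.72 and 0.79). Among 13 receptors outside the members, 4 rose and 4 fell in WT and 2 rose and 4 fell in KO cells. The planar polarity cadherin Celsr2 rose by 2.09, adjusted p = 4.79e-05 and 0.79, adjusted p = 0.0169, and the polarity gene Vangl2 fell (-1.69, adjusted p = 0.000186, and -1.35, adjusted p = 0.00128). Of 11 Wnt target genes 3 rose and 1 fell in both genotypes: Fosl1 rose by 2.15 and 1.81, and Wisp1 differed by -1.59 and -1.49. The epithelial markers summed to 17.5 to 36.7 CPM in WT mock and 211 to 327 CPM in WT doxorubicin libraries, and to 11.0 to 42.4 and 111 to 292 CPM in KO. The mock sum held 3 of 14 markers (Krt18, Krt19 and Esrp2) and the doxorubicin sum Cldn4 as well, so the sums are not of the same genes. The blood and macrophage markers summed to 2.84 to 29.2 CPM in WT mock (Cd68 alone) and 81.7 to 157 CPM in WT doxorubicin libraries (Cd68 and Cd14), and to 2.42 to 58.3 and 69.0 to 131 CPM in KO. The adipocyte markers, 5 of 9 listed in mock and 4 in doxorubicin libraries, summed to 36.2 to 74.3 and 103 to 171 CPM in WT, and to 32.1 to 47.2 and 54.3 to 80.8 CPM in KO. The part of other cells in these responses was not tested.

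Loss of lincRNA-p21 was followed by differences in 18 of the 67 members in doxorubicin-treated cells when libraries of the same replicate number were paired, and by none without pairing. WT and KO libraries with the same number deviated from their group means together, so a fit paired by that number (the replicate block) is given beside the unpaired. Without the block limma called 0 of 67 members, as 0 of all 11125 genes (background 0%), with an unadjusted p under 0.05 for 11 members and 1246 genes (11.2%) and a smallest adjusted p among members of 0.443. With the block 7 members were higher and 11 lower in KO cells, 26.9% of the members against 25.3% of all genes. The share is close to that of all genes, and the account below is of which members these were. Of the members called lower, Wnt7b, Wnt3, Fzd10, Sfrp2 and Bmp6 were listed for doxorubicin-treated cells alone, as was Axin2 among the higher. Their listing rested on the WT level there, which favours levels below WT, so nothing is read from the split. The members' median log2 difference was -0.03, and that of all genes 0.033. The groups did not overlap for 11 members (5 higher and 6 lower, 16.4%), against 16.3% of all genes. Leaving out pair 1, 2 or 3 left 9, 22 and 13 members called, against 6.22%, 23.3% and 14% of all genes. Under each of these omissions 8 of the 18 passed: Bmp4, Acvrl1, Tgfb1i1, Tgfbr2, Fzd10, Wnt7b, Wnt4 and Tgfbr1. Fzd10 and Wnt7b among them were listed by their WT level after doxorubicin, and leaving out a pair does not undo that choice.

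Of 9 Wnt ligands measured after doxorubicin, 3 (Wnt3, Wnt4 and Wnt7b) were called lower in KO cells with the block, where 13.6% of all genes were, and 7 had a level below WT (54.2% of all genes lay above WT). Wnt2, Wnt3, Wnt7b and Wnt11 were listed only through their WT level after doxorubicin, a choice that favours levels below WT, so nothing is read from these counts. Wnt4, listed above, was lower in KO in every pair (log2 difference -0.88, SE 0.12, adjusted p = 0.00704 with the block), although the groups overlapped, since replicate 3 was highest in both. Wnt7b, a beta-catenin-branch ligand, stood at 12.6, 17.1 and 38.1 CPM in WT and 6.40, 10.8 and 15.0 in KO doxorubicin libraries. It was lower in KO cells in each pair (log2 difference -0.93, SE 0.15, adjusted p = 0.00942 with the block, pairs -0.87, -0.61 and -1.29). Wnt3, a ligand of the same branch, stood at 7.57, 7.36 and 15.6 CPM in WT and 2.82, 6.31 and 8.43 in KO doxorubicin libraries. It was also lower (log2 difference -0.73, SE 0.20, adjusted p = 0.0373 with the block), a call lost without pair 1 or 3 (adjusted p = 0.156 and 0.0777) and with quantile normalization (0.0552). Fzd10, a Frizzled receptor, stood at 6.73, 6.53 and 13.5 CPM in WT and 1.86, 2.95 and 6.85 in KO doxorubicin libraries and was lower in KO cells (log2 difference -1.09, SE 0.16, adjusted p = 0.00748 with the block). Wnt7b, Wnt3 and Fzd10, with Sfrp2 and Axin2 below, were listed for doxorubicin-treated cells alone, where listing required more than 2 CPM in each WT library. Wnt2 (2.92, 5.56 and 7.07 CPM in WT and 1.79, 5.47 and 1.48 in KO doxorubicin libraries) and Wnt11 (4.79, 11.1 and 3.95 CPM in WT and 5.44, 12.0 and 4.98 in KO doxorubicin libraries), listed there too, were not called. The secreted antagonists went both ways. Frzb, whose levels are given above, was lower in KO cells with no overlap (log2 difference -1.23, SE 0.22, adjusted p = 0.0118 with the block, pairs -1.26, -1.84 and -0.59), at 0.0584 without pair 1. Sfrp2, another secreted Frizzled-related protein, stood at 20.1, 43.0 and 38.4 CPM in WT and 9.41, 30.8 and 18.1 in KO doxorubicin libraries and was lower (log2 difference -0.84, SE 0.14, adjusted p = 0.00951 with the block, lost without pair 1 at 0.0548). Dkk2 was higher in KO cells with no overlap (log2 difference 0.55, SE 0.13, adjusted p = 0.0241 with the block, lost without pair 1 at 0.0722). Axin2, the feedback scaffold induced by beta-catenin, stood at 43.4, 12.4 and 55.1 CPM in WT and 64.9, 30.4 and 78.7 in KO doxorubicin libraries and was higher in each pair (log2 difference 0.77, SE 0.15, adjusted p = 0.0141 with the block, 0.0512 without pair 1). Dkk3, Sfrp1, Lrp5, Lrp6, Axin1 and Wnt5a were not called (log2 differences -0.15, -0.29, -0.11, 0.23, -0.07 and 0.14).

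**Figure D3:**
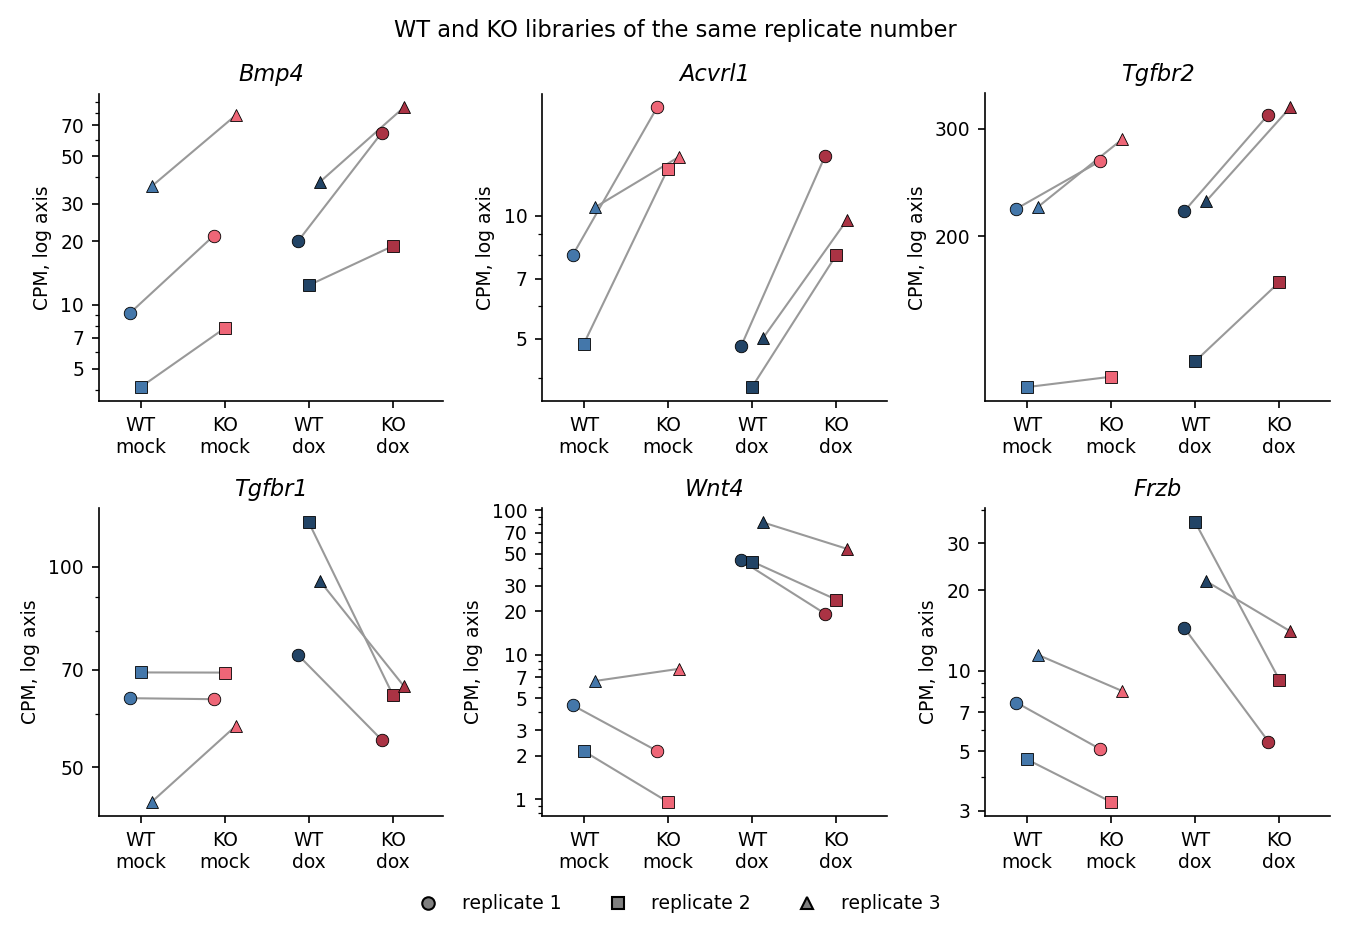
CPM (log axis) of Bmp4, Acvrl1, Tgfbr2, Tgfbr1, Wnt4 and Frzb in the 4 groups, with grey lines joining the WT and KO libraries of the same replicate number within a treatment. The doxorubicin lines run upward to KO for Bmp4, Acvrl1 and Tgfbr2 and downward for Tgfbr1, Wnt4 and Frzb in all 3 pairs, while the pairs themselves lie far apart for Bmp4 and Tgfbr2.

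In the BMP and TGF-beta branches, Bmp4 and the receptors Acvrl1 and Tgfbr2 were higher and the receptor Tgfbr1 lower in doxorubicin-treated KO cells. Bmp4, whose levels are listed above, differed by 1.65, 0.58 and 1.15 in pairs 1, 2 and 3 (log2 difference 1.12, SE 0.19, adjusted p = 0.00978 with the block). Acvrl1, the type I receptor through which BMPs and TGF-beta act in endothelium, stood at 8.03, 4.86 and 10.5 CPM in WT mock and 18.4, 13.03 and 13.9 CPM in KO mock libraries. After doxorubicin, Acvrl1 stood at 4.79, 3.80 and 5.01 CPM in WT and 14.0, 8.00 and 9.76 CPM in KO libraries. Every KO library lay above every WT library of its treatment (log2 difference 1.04, SE 0.16, adjusted p = 0.00755 with the block after doxorubicin). The endothelial markers, of which 4 of 13 were listed, summed to 224 to 240 CPM in WT and 162 to 203 CPM in KO doxorubicin libraries, and to 217 to 309 and 162 to 396 CPM in mock libraries. Their part in the Acvrl1 difference was not tested. Tgfbr2 differed by 0.52, 0.43 and 0.51 in the pairs (log2 difference 0.49, SE 0.07, adjusted p = 0.00650 with the block), and Tgfbr1 by -0.42, -0.85 and -0.52 (log2 difference -0.60, SE 0.10, adjusted p = 0.00984 with the block). For Tgfbr1 the groups did not overlap, whereas for Tgfbr2 replicate 2 of KO lay below replicates 1 and 3 of WT. Bmpr2 was lower in KO cells with no overlap (log2 difference -0.32, SE 0.08, adjusted p = 0.0291 with the block), and the call was lost without any 1 pair (0.110, 0.0510 and 0.0742). Bmp6, another BMP ligand, stood at 16.9, 14.8 and 19.5 CPM in WT and 10.2, 10.8 and 11.1 in KO doxorubicin libraries and was lower with no overlap (log2 difference -0.62, SE 0.12, adjusted p = 0.0165 with the block, lost without pair 1 at 0.0806 or 3 at 0.0760). Of the BMP ligands and GDFs not called, Bmp2, Bmp8a, Bmp8b and Gdf6 lay from -0.63 to -0.26, and Gdf15 at 0.10. Bmp6, Bmp2, Bmp8a, Bmp8b and Gdf6 were listed only through their WT level after doxorubicin, a choice that favours levels below WT. Ltbp1, a latent TGF-beta binding protein, stood at 285, 387 and 279 CPM in WT mock and 283, 389.6 and 251 CPM in KO mock libraries. After doxorubicin, Ltbp1 stood at 279, 324 and 251 CPM in WT and 356, 405 and 358 CPM in KO libraries. It was higher in KO after doxorubicin with no overlap (log2 difference 0.39, SE 0.07, adjusted p = 0.0122 with the block, lost without pair 1 at 0.0685 or 3 at 0.0527). None of the TGF-beta and activin ligands or Smads was called, with log2 differences from -0.20 (Tgfb2) to 0.39 (Inhbb) and from -0.07 (Smad7) to 0.29 (Smad6). Acvr1, Acvr1b, Acvr2a, Bmpr1a, Bmpr1b and Tgfbr3 were not called either.

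Of the members placed in none of the roles, Tgfb1i1 was higher in doxorubicin-treated KO cells with no overlap (log2 difference 0.69, SE 0.08, adjusted p = 0.00461 with the block, pairs 0.57, 0.78 and 0.73). Bmp1, the procollagen C-proteinase, stood at 791, 795 and 461 CPM in WT mock and 552, 472 and 436 CPM in KO mock libraries. After doxorubicin, Bmp1 stood at 903, 757 and 608 CPM in WT and 586, 539 and 564 CPM in KO libraries. It was lower in KO cells after doxorubicin (log2 difference -0.41, SE 0.11, adjusted p = 0.0337 with the block, lost without pair 1 at 0.176 or 2 at 0.0754). Tgfbrap1 was lower with no overlap (log2 difference -0.39, SE 0.10, adjusted p = 0.0288 with the block), lost without any 1 pair (0.0755, 0.0529 and 0.0538). Markers of other cell types differed between the same libraries. The cartilage and bone markers, 6 of 13 listed, summed to 843 to 947 CPM in WT and 1135 to 1652 CPM in KO doxorubicin libraries. The adipocyte markers, 4 of 9 listed, summed to 103 to 171 CPM in WT and 54.3 to 80.8 CPM in KO. Neither pair of ranges overlapped, and their part in these differences was not tested. The fibroblast markers overlapped, at 34432 to 42206 CPM in WT and 31983 to 40535 CPM in KO libraries, as did the smooth muscle markers at 3446 to 8971 and 3484 to 5857 CPM.

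**Figure D4:**
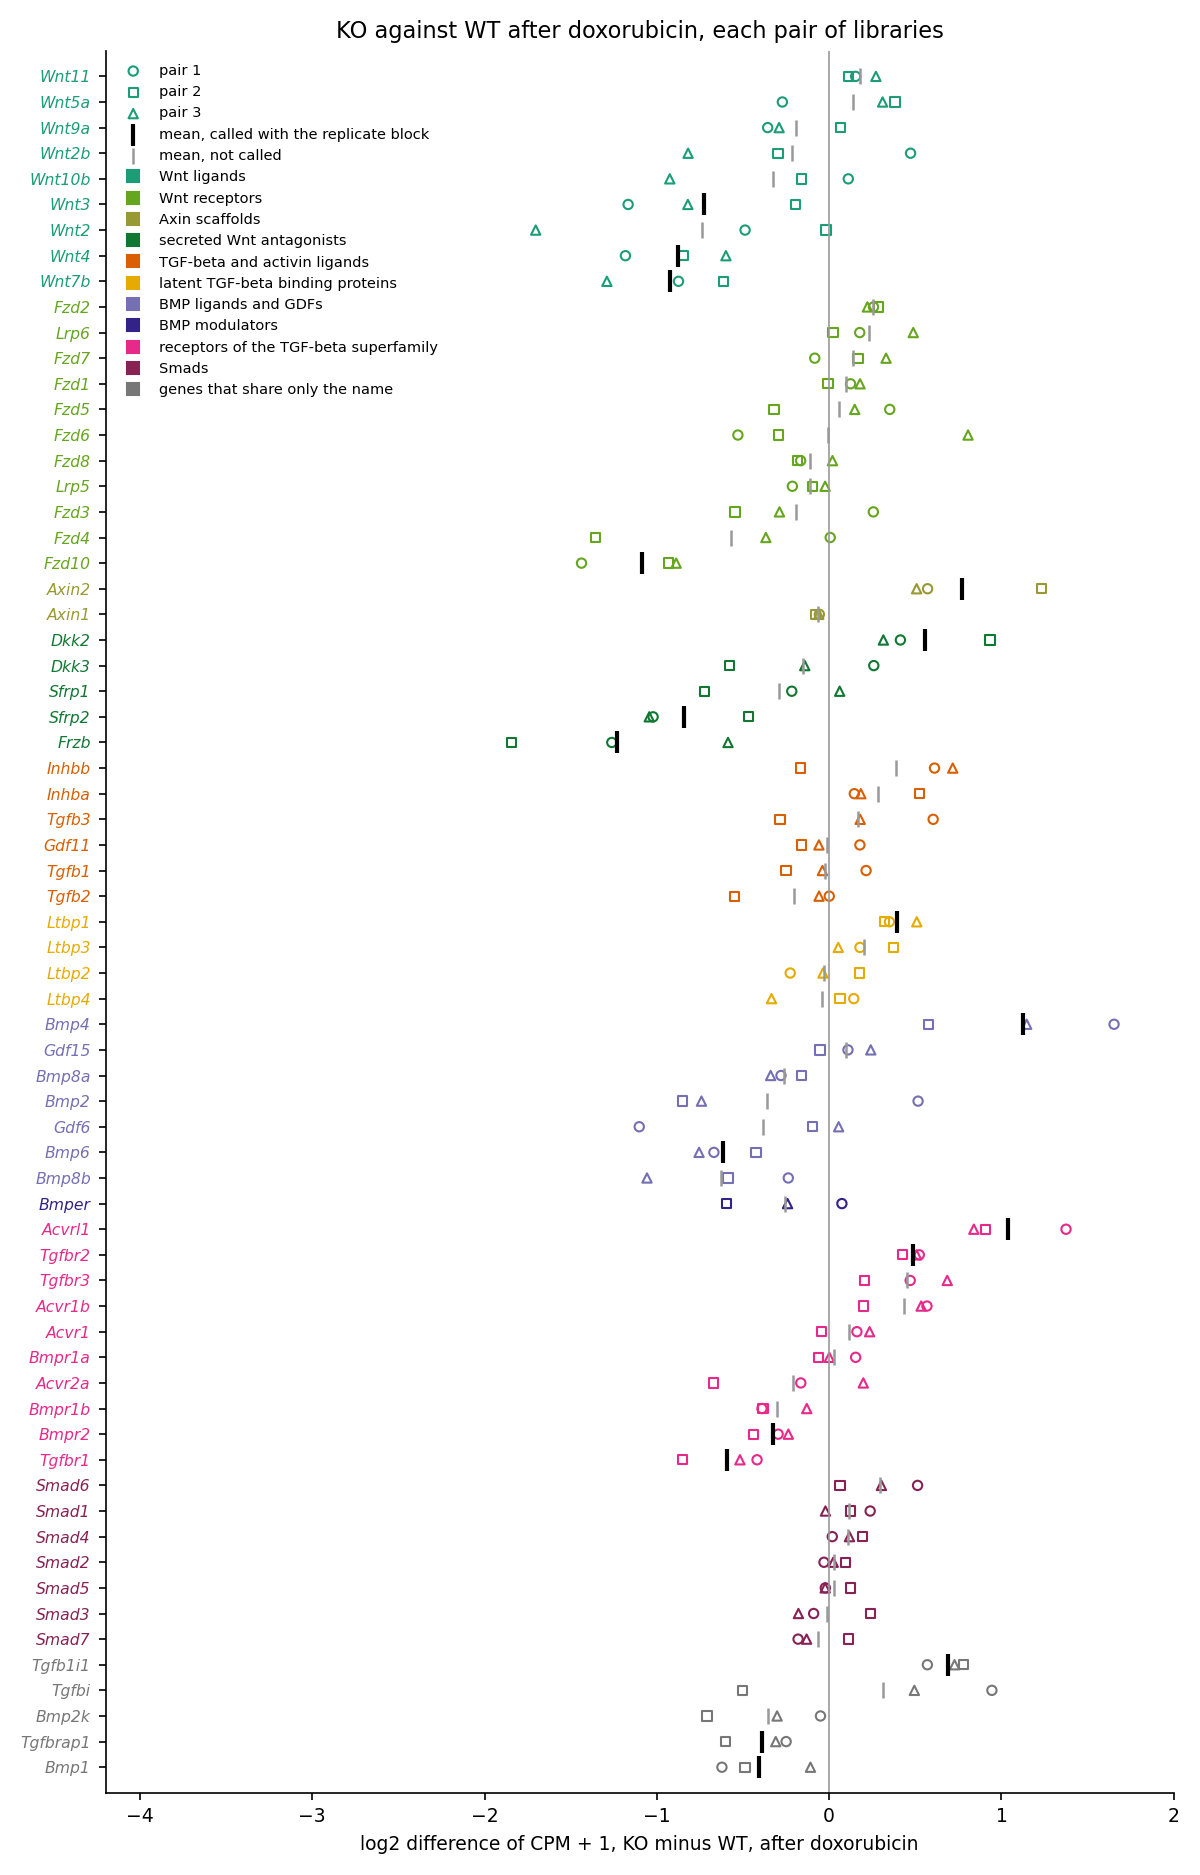
Log2 difference of CPM + 1, KO minus WT after doxorubicin, for each of the 3 pairs of libraries with the same replicate number and for all 67 members listed there; a black bar marks the mean of members called with the replicate block. Members are grouped by role and ordered by log2 difference within a role. Of the 18 called members, Bmp4 and Acvrl1 lie farthest to the right and Frzb and Fzd10 farthest to the left. Each of the 18 has all 3 pairs on the same side, but the fit that called them used these same pairs. Of all 67 members 34 had 3 pairs of the same sign (50.7%, against 61.8% of all genes).

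In mock-treated cells Bmp4 was higher and Wnt5a lower in KO than in WT when libraries were paired by number, and no other member was called. Without the block 0 of 56 members were called, as 0 of all 10648 genes (background 0%), with an unadjusted p under 0.05 for 3 members and 440 genes (4.13%). With the block 2 members (3.57%) were called, against 0.920% of all genes. Bmp4 was higher in KO cells in each pair (1.13, 0.78 and 1.09; log2 difference 1.000, SE 0.10, adjusted p = 0.0302 with the block), and the call was lost without pair 1 (0.125) or pair 2 (0.154). Its level in KO replicate 2 nevertheless lay below that of 2 WT libraries, since the replicates spanned a wide range in both genotypes. Wnt5a was lower in KO cells (log2 difference -0.41, SE 0.05, adjusted p = 0.0367 with the block, pairs -0.46, -0.37 and -0.41), lost without pair 1 (0.236) or pair 2 (0.239). Without pair 3, 16 members passed, where 22.9% of all genes did. Without pair 1 or 2 no member passed, against 0.0376% and 0% of all genes. Acvrl1 (0.91, 0.0825 with the block) and Bmpr1b (-0.75, 0.0556) had larger log2 differences than Wnt5a without passing. The groups did not overlap for 4 members, all higher in KO (Bmpr1a, Smad4, Axin1 and Acvrl1), which is 7.14% against 9.98% of all genes. Of the 56 members 32 lay above and 24 below WT, and 66.6% of all genes lay above. Wnt16, listed for mock cells alone, stood at 6.07, 4.96 and 2.72 CPM in WT and 4.20, 1.77 and 5.47 in KO mock libraries and was not called (log2 difference -0.25). The cartilage and bone markers, 4 of 13 listed, summed to 945 to 1494 CPM in WT and 1839 to 3685 CPM in KO mock libraries, without overlap, and their part in these differences was not tested.

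Whether the doxorubicin response differed between the genotypes was tested as an interaction, and no member passed. It was 0 of 55 members and 0 of 10292 genes, both without and with the block (background 0% for both), with an unadjusted p under 0.05 for 4 and 8 members and for 468 and 1610 genes (4.55% and 15.6%). The member with the smallest p was Tgfb1i1, whose fall was smaller in KO cells (interaction log2 difference 0.77, SE 0.24, adjusted p = 0.922, 0.193 with the block). For Tgfbr1, called in WT and not in KO cells, the interaction was log2 difference -0.72, SE 0.27, adjusted p = 0.922 (0.232 with the block), and for Frzb it was log2 difference -0.79, SE 0.60, adjusted p = 0.922 (0.453). Calls made in only 1 genotype above are therefore not shown to differ between genotypes.

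Outside the members, the lists held paired differences in both directions in doxorubicin-treated cells, and 0 calls without the block in any list. Of the BMP and TGF-beta antagonists 2 of 15 were called higher and 6 lower (median log2 difference -0.36), against 11.8% and 13.6% of all genes. The list was chosen with earlier results of these data known, and 14 of its genes were measured with both treatments. Nothing is therefore read from these counts. The BMP antagonist Nog stood at 9.16, 17.9 and 10.2 CPM in WT and 3.71, 9.36 and 6.41 in KO doxorubicin libraries (-0.86, adjusted p = 0.0102 with the block), and the pseudoreceptor Bambi at 17.3, 41.5 and 26.1 and 12.4, 16.5 and 16.9 (-0.78, adjusted p = 0.0213). Grem1, also a BMP antagonist, was higher in KO cells, at 128, 191 and 185 in WT and 221, 252 and 304 in KO libraries (0.63, adjusted p = 0.00713), as was Fstl1 (0.53). Of 16 BMP targets 6 were higher and 4 lower. Id3 stood at 52.1, 75.7 and 105 CPM in WT and 103, 111 and 157 in KO libraries (0.70, adjusted p = 0.00713), the homeobox gene Msx1 at 2.78, 3.90 and 3.95 and 6.53, 5.94 and 9.41 (0.86, adjusted p = 0.0141), and Id1 differed by 0.41, adjusted p = 0.0207, while Hey1 was lower (-0.98, adjusted p = 0.00489). Nog and Bambi are counted among these targets as well. Of 29 TGF-beta targets 5 were higher and 3 lower, among them Snai1 (0.75, adjusted p = 0.00713), Cyr61 (0.66, adjusted p = 0.00650), Cnn1 (-0.76, adjusted p = 0.0109) and Itga11 (-1.19, adjusted p = 0.0256). The co-receptor endoglin (Eng) stood at 65.2, 52.1 and 48.6 CPM in WT and 39.2, 40.3 and 28.7 in KO libraries (-0.61, adjusted p = 0.0103), and fibrillin 2 (Fbn2) differed by 1.56, adjusted p = 0.0323. In all, 3 of 15 latency and co-receptor genes were higher and 2 lower. Of 13 Wnt targets 3 were higher and 1 lower. Cyclin D1 (Ccnd1) stood at 356, 315 and 477 CPM in WT and 751, 713 and 793 in KO libraries without overlap (0.996, adjusted p = 0.00440), Wisp2 at 35.4, 6.63 and 55.7 and 95.2, 9.89 and 202 (1.25, adjusted p = 0.0115), and Fgf18 was lower (-0.77, adjusted p = 0.0101). Lef1 was not called (0.13, adjusted p = 0.557). Of 36 transduction genes 4 were higher and 3 lower, led by Tle1 (0.46) and Cby1 (-0.45), and of 14 receptors 4 were higher and 2 lower, led by Ror2 (0.57) and Celsr2 (-0.65). Among 10 inhibitors Igfbp4 was higher (0.91, adjusted p = 0.00740) and Dact1 lower (-0.51), and of 30 Smad partners 3 were higher and 3 lower, Zeb1 (0.60) and Ube2o (-0.66) leading. In mock cells the calls with the block were Wisp2 (0.85, adjusted p = 0.0457), the integrin Itgb8 (1.06, adjusted p = 0.0383), Eng (-0.57, adjusted p = 0.0362) and Cnn1 (-0.55, adjusted p = 0.0246).

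The levels of Tgfb1, Tgfbr2 and some other members differed mainly by replicate number. When the spread of log2(CPM + 1) over 12 libraries was divided between replicate number, group and the rest, the number held a median of 21.8% for the 55 members and 18.7% for all genes. It held 84.4% for Tgfb1, 81.6% for Tgfbr2, 75.4% for Ltbp4, 74.3% for Fzd3, 71.1% for Sfrp1, 65.1% for Tgfbr3 and 62.3% for Bmp4, and exceeded the group share for 14 of the 55 members and 2524 of 10292 genes, similar shares. In contrast, the group held 93.4% for Wnt9a and 91.3% for Tgfb1i1, and the number held 1.94% for Dkk2. The 3 numbers kept the same order in all 4 groups for 8 members (14.5%, against 11.0% of all genes): Tgfb1, Tgfbr2, Bmp4, Inhbb, Dkk3, Acvr1b, Bmpr1b and Bmper. Replicate 2 was lowest in all 4 groups for 10 members, against 12.2% of all genes. What the shared number stands for (an embryo, a litter or a day) is not given in the sources used here.

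**Figure D5:**
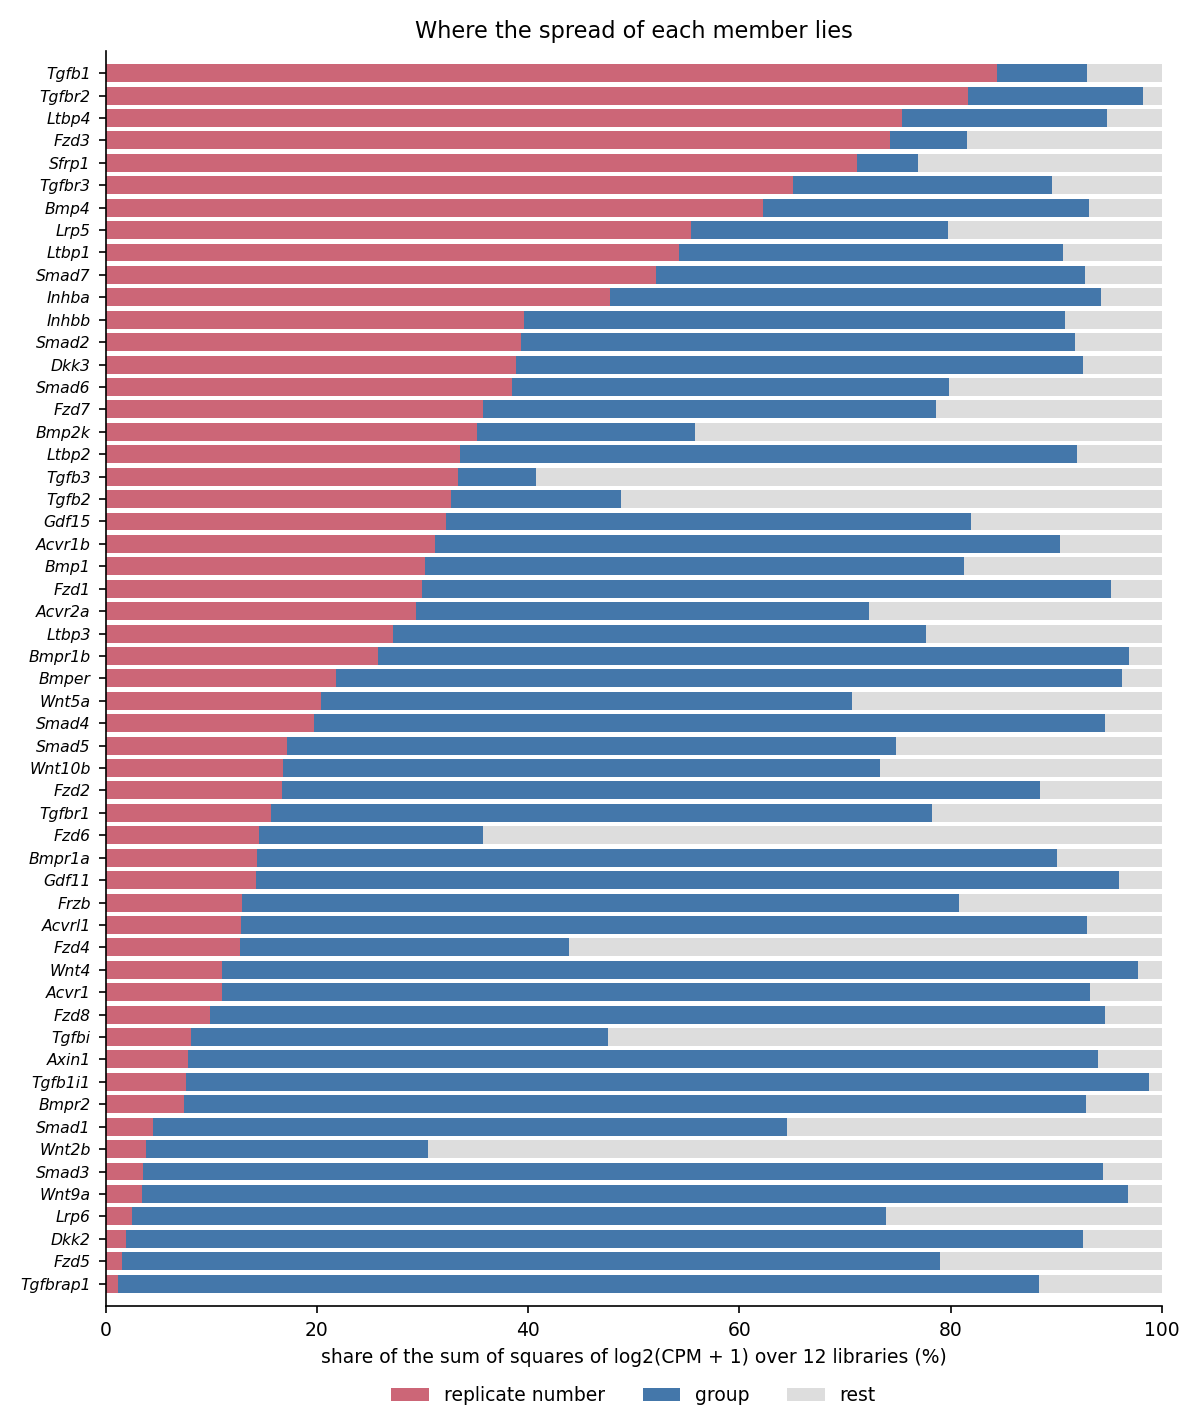
Share of the sum of squares of log2(CPM + 1) over the 12 libraries (horizontal axis, %) that lies between replicate numbers, between the 4 groups and in the rest, for each of the 55 members in both tables. Tgfb1 and Tgfbr2 are mostly replicate number (84.4% and 81.6%), and Wnt9a and Tgfb1i1 are mostly group (93.4% and 91.3%).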

How the data were processed

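RNA was sequenced after poly(A) selection with a stranded TruSeq kit, per the labels' protocols. The authors deposited gene-level CPM (read counts per 1000000 reads) in 2 tables. TopHat2 2.0.6, HTSeq, edgeR and the mouse build NCBIM37 are named in the submitters' processing notes, and whether counting used strand is not given in the sources used here. CPM is not corrected for gene length, so levels are not compared between genes. Library totals were computed from the smallest steps between values, at which 100% of the deposited values were within 0.001 read of a whole number, and the listed genes held 99.2% to 99.6% of each library.

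Values were tested as log2(CPM + 1) with limma 3.58.1 in R 4.3.3 (lmFit, eBayes with trend, two-sided, Benjamini-Hochberg over all genes of the fit, threshold 0.05). Genotypes were compared within a table, doxorubicin responses and the interaction in 1 fit of 12 libraries over 10292 shared genes. A minimum mean of 1 CPM removed 0 genes. A pseudocount of 1 understates the fold of low genes. Groups hold 3 biological replicates, and whether these are separate embryos is not given, so p-values measure the spread between these libraries.

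The labels give the same replicate numbers to each group without saying what they mark. Deviations from the group means of same-numbered libraries correlated over all genes at 0.710 to 0.855 (WT and KO, mock), 0.669 to 0.800 (WT and KO, doxorubicin), 0.394 to 0.517 (WT, across treatments) and 0.428 to 0.728 (KO, across treatments). Every pair was above 0.1, so the numbers were taken to pair the libraries, and a fit with the number as a block is given where it changes a call.

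Members were named in full where called, ranked by size of the log2 difference, up to 12 each way per comparison, from the blocked fit where the unblocked fit called under 5. A fixed set (Tgfb1 to Tgfb3, Tgfbr1 to Tgfbr3, Inhba, Gdf15, Bmp4, Smad2, Smad3, Smad4, Smad6, Smad7, Axin1, Axin2, Lrp5, Lrp6, Frzb, Sfrp1, Sfrp2, Dkk2, Dkk3 and Wnt5a) was given whatever its values, and from each pathway list the 2 largest calls each way, with Id1 and Lef1. Some genes that this rule names are not reported here. Members, lists and shown promoters were chosen with earlier results of these data known. The fits were run on simulated data in which same-numbered libraries shared a deviation, so these data could not test the pairing. Recovery of the known changes was required of the fits with the block only. Alternatives were other pseudocounts, filters, quantile normalization, median centring, the block and leaving out each library or pair.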

Additional observations from a re-analysis of the deposited data

Results flagged for a closer look

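For 3 members every pair of libraries moved one way under one condition and the opposite way under the other, and none passed the test of that difference (limma). How many of all genes did so was not counted, so nothing is read from the number of such members. For Axin1 the KO minus WT log2 differences were 0.16, 0.20 and 0.08 in mock pairs and -0.06, -0.08 and -0.06 after doxorubicin, an interaction of -0.21 (adjusted p = 0.922, or 0.340 with the replicate block). For Inhba they were -0.04, -0.28 and -0.44 in mock pairs and 0.15, 0.52 and 0.18 after doxorubicin, an interaction of 0.54 (0.922 and 0.232). For Ltbp1 the doxorubicin minus mock differences were -0.03, -0.26 and -0.15 in WT and 0.33, 0.06 and 0.51 in KO cells, an interaction of 0.44 (0.922 and 0.209).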

How the results depend on the processing

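The number of members called in doxorubicin-treated WT cells, 25, ranged from 24 to 26 over pseudocounts of 0.25 and 4, no filter, a filter at 10 CPM, quantile normalization and median centring, and was 36 with the replicate block (35 with quantile normalization and 34 with median centring added). The 14 called in KO cells ranged from 14 to 16 over the same settings without the block and were 32 with it (33 and 30). Genotype comparisons gave 0 members under each setting without the block. With the block it was 18 of 67 after doxorubicin (19 with quantile normalization, 18 with median centring) and 2 of 56 in mock cells (2 and 3). Combining the block with another scaling was chosen after the data were seen. The interaction gave 0 throughout.

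Leaving out 1 library gave 17 to 25 calls in WT (17 without WT doxorubicin replicate 3) and 7 to 17 in KO cells (7 without KO doxorubicin replicate 3, 9 without KO mock replicate 3), and 0 to 0 for the genotype comparisons. With the block, leaving out 1 pair gave 28 to 31 in WT, 22 to 25 in KO, 9 to 22 for the genotypes after doxorubicin and 0 to 16 in mock cells. Over all genes, leaving out 1 library gave 37.6% to 47% in WT and 24.7% to 35.9% in KO cells. Leaving out 1 pair gave 52.4% to 55.1%, 37.2% to 44.4%, 6.22% to 23.3% and 0% to 22.9% of all genes, in the order above. Among called members up to 12 each way, 13 of 23 in WT and 6 of 14 in KO cells passed under each of the 12 omissions. Of the WT calls beyond that limit, Bmpr2 also passed each time (limma, adjusted p up to 0.00891) and Axin1 did not (up to 0.0522). No result reversed its direction past the threshold. Median centring moved the median of all genes by -0.111 in the WT and -0.084 in the KO response. The cause of these changes was not tested.

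The 2 planned count tests with edgeR were not run. The 3 replicates a group and CPM near 2 limit the precision for low members such as Wnt2, Wnt16 and Bmp8b.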
